A study of Mus musculus with 48 samples.

Results

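The 37 genes of the mouse mitochondrial genome were followed across slices of mouse kidney kept in culture. They were taken as every row of the deposited count table whose Ensembl identifier carries a mouse symbol beginning with mt-, which gave 37 of 55487 rows, and the rule uses no expression value, although it was set with earlier results of these data known. Of these, 13 encode proteins, 2 encode ribosomal RNAs (rRNAs) and 22 encode transfer RNAs (tRNAs).

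The study made 48 bulk RNA-sequencing libraries from kidney slices of male mice of 2 inbred strains, C57BL/6J and DBA/2J, the founders of the BXD recombinant panel. Each strain had 8 conditions with 3 libraries each: control slices at 6 h and 24 h, slices given tunicamycin at 6 h and 24 h, slices given cyclosporin A at 6 h and 24 h, and 2 groups at 24 h with altered oxygen, named normoxia (an ischemia model by its label) and normoxia-hyperoxia (a reperfusion model). The labels call all control and drug slices nephrotoxicity, and no control is labelled ischemia or reperfusion. When the oxygen groups are set against controls, the condition and any other difference between these labelled sets cannot be told apart. Tunicamycin blocks the attachment of N-linked sugars to proteins, and cyclosporin A is a calcineurin inhibitor and immunosuppressant that can harm the kidney. The labels give no dose, no age, no oxygen level for the control slices, and do not say which slices came from the same mouse, so the p-values measure the spread between these libraries. All groups share culture outside the body, and none was uncultured tissue.

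Mitochondrial DNA is a small circle that is transcribed from both strands into long RNAs. These are cut, largely at the tRNAs that lie between the other genes, into separate mRNAs, rRNAs and tRNAs. The 13 proteins are core subunits of the respiratory chain: mt-Nd1 to mt-Nd6 and mt-Nd4l belong to complex I (NADH dehydrogenase), mt-Cytb to complex III, mt-Co1 to mt-Co3 to complex IV (cytochrome c oxidase), and mt-Atp6 and mt-Atp8 to the ATP synthase. The remaining subunits are made from nuclear genes, and complex II is wholly nuclear. Kidney tubules, above all the proximal tubule and the thick ascending limb, are rich in mitochondria, which power the transport of sodium. The libraries were prepared with a kit that captures RNA by its poly(A) tail. Most mitochondrial mRNAs carry short tails. Counts of mitochondrial mRNA, rRNA and tRNA in such libraries are those of the captured molecules, not of their total amount.

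The libraries held 5619309 to 25137581 counts, with a median of 19607361. The lowest was DBA/2J normoxia-hyperoxia replicate 2, and the next lowest held 12384733. The 37 genes together had 500845 to 5206010 counts in a library, so their summed share was not limited by counting, while 12 of the 22 tRNA genes were at 0 in over 24 of the 48 libraries. The markers of proximal tubule, thick ascending limb, distal tubule, collecting duct, podocytes and endothelium were all detected in the control, normoxia and normoxia-hyperoxia groups, and the summed adipocyte markers stayed at or below 0.327 on the counts-per-million scale (CPM) as a group mean there. In bulk tissue, fewer cells of a type and less RNA per cell cannot be told apart.

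A stretch of nuclear chromosome 1 repeats part of the mitochondrial genome, and 8 protein genes lie in it wholly or partly. In the GENCODE M21 annotation of build GRCm38, 7 pseudogenes lie on the minus strand within chr1:24611535-24616197, a segment of 4663 bases. Their order and spacing are those of the mitochondrial genes: the copies of mt-Co2 and mt-Atp6 start 914 bases apart, as do the genes, those of mt-Atp6 and mt-Co3 680 bases apart, and those of mt-Co3 and mt-Nd3 852 bases apart. From mt-Nd3 to mt-Nd4l the spacing is 419 bases on chromosome 1 and 418 on the mitochondrial genome. Matches of 99% identity or more cover 681 of the 684 bases of mt-Co2, 678 of the 681 bases of mt-Atp6, 783 of the 784 bases of mt-Co3, 345 of the 348 bases of mt-Nd3 and 294 of the 297 bases of mt-Nd4l. They also cover 63.57% of mt-Nd4 and 31.26% of mt-Co1, which lie at the ends of the segment. Of mt-Atp8 only the last 43 bases match an annotated pseudogene, and the place that its other bases would take lies between 2 annotated pseudogenes. The start of mt-Nd4l, the complex I subunit at chrM:9877-10173, is shown with its copy because no base differs over 60 bases, so a read from it fits both places equally well:
mt-Nd4l: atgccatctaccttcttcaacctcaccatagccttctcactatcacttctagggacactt
Gm10222: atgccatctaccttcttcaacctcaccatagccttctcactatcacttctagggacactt
The first lies on the plus strand at chrM:9877-9936 and the second on the minus strand at chr1:24612641-24612700.

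Within the annotated pseudogenes compared, 2 places where copy and gene differ are shown, because a read that covers one of them could be told apart. Stretches between the annotated pseudogenes were not compared. Capitals mark the base that differs. Positions are counted from 1 at the first base of the mitochondrial gene, whose base is given first:
mt-Nd3: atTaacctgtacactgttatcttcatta
Gm28438: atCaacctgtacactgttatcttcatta
mt-Co1: ggaAttgttttatccaactcatcccttga
Gm29216: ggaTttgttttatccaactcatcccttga
The first pair differs by T3C, with mt-Nd3 at chrM:9459-9486 and Gm28438 on the minus strand at chr1:24613092-24613119. The second differs by A1066T, with mt-Co1 at chrM:6390-6418 and Gm29216 on the minus strand at chr1:24616160-24616188. A further 43 bases belong to 2 proteins at once, since the end of mt-Atp8 is also the start of mt-Atp6 in another reading frame (chrM:7927-7969, capitals mark the start codon of mt-Atp6). A read within them belongs to both genes:
mt-Atp8 and mt-Atp6 overlap: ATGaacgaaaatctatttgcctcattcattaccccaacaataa

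The 6 protein genes that lie wholly within the copied segment (mt-Co2, mt-Atp8, mt-Atp6, mt-Co3, mt-Nd3 and mt-Nd4l) had far lower counts than the other protein genes and the rRNAs of the same strand. mt-Atp8 is placed among them by its position, since only its last 43 bases were matched to a copy. On a scale of CPM per kilobase of gene, averaged over the 48 libraries, mt-Cytb was highest at 27944, followed by mt-Co1 at 18400, mt-Nd1 at 13227, mt-Nd4 at 8758, mt-Nd2 at 8507 and mt-Nd5 at 3870. The 6 genes within the segment lay between 8.96 (mt-Nd3) and 33.9 (mt-Co2). The lowest of the 4 heavy-strand genes with no near-identical copy, mt-Nd5, was 114-fold above the highest of these 6. mt-Nd6, the only protein gene on the light strand, was at 75.7. The 2 rRNAs were at 1411 (mt-Rnr2, the large subunit) and 1266 (mt-Rnr1, the small subunit). Among tRNAs, mt-Tl1 (leucine) was highest at 323, then mt-Tm (methionine) at 146 and mt-Tw (tryptophan) at 39.99, and the lowest, mt-Tk (lysine), had a single count in 1 of 48 libraries. How the authors' counting treated reads that fit more than 1 place is not given in the sources used here, and the part of the copy in these low counts was not tested. Results for the 6 genes are therefore given apart from those of the other 7 protein genes, of which mt-Nd4 and mt-Co1 lie partly in the segment and mt-Nd1, mt-Nd2, mt-Nd5, mt-Nd6 and mt-Cytb lie outside it. For the 6, the fold changes are differences between counts that were assigned, not between levels of the mRNA.

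**Figure D1:**
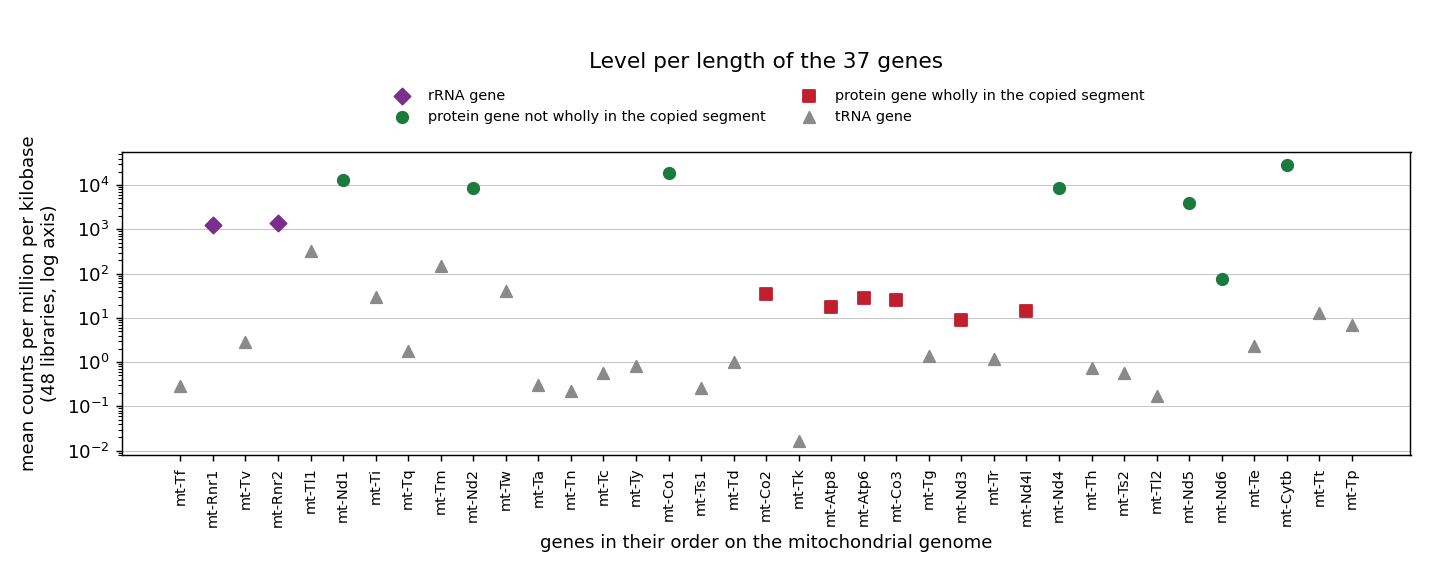
Level of each of the 37 genes in their order on the mitochondrial genome, as the mean over 48 libraries of CPM per kilobase, on a log axis. Circles are the 7 protein genes not wholly in the segment copied on chromosome 1, squares the 6 within it (mt-Atp8 by its position). The squares lie between 8.96 and 33.9. Diamonds are the rRNAs and triangles the tRNAs.

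The share of all counts that came from the 37 genes ranged from 3.11% to 25.6% of a library, and it moved with culture time, oxygen condition and strain. In C57BL/6J it was 15.4% ± 0.783 (SD, n = 3) in 6 h controls, 6.82% ± 0.970 in 24 h controls, 23.9% ± 1.55 under normoxia and 14.1% ± 2.32 under normoxia-hyperoxia. In DBA/2J the same groups were at 8.16% ± 0.145, 3.52% ± 0.116, 12.3% ± 0.534 and 13.7% ± 3.30. From 6 h to 24 h the share in controls was 2.26-fold lower in C57BL/6J and 2.32-fold lower in DBA/2J, and under normoxia it was 3.50-fold above the 24 h controls in each strain, with no overlap between the libraries of the groups. Slices given tunicamycin or cyclosporin A lay nearer to the controls of their hour: 15.5% and 16.6% at 6 h and 6.16% and 6.22% at 24 h in C57BL/6J, and 8.87% and 9.13% at 6 h and 3.44% and 3.49% at 24 h in DBA/2J. In DBA/2J at 6 h the libraries of each drug lay above those of the controls without overlap, by 1.09-fold and 1.12-fold, and in the other 6 cases they overlapped. The share describes the sum over the members and was given no test.

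**Figure D2:**
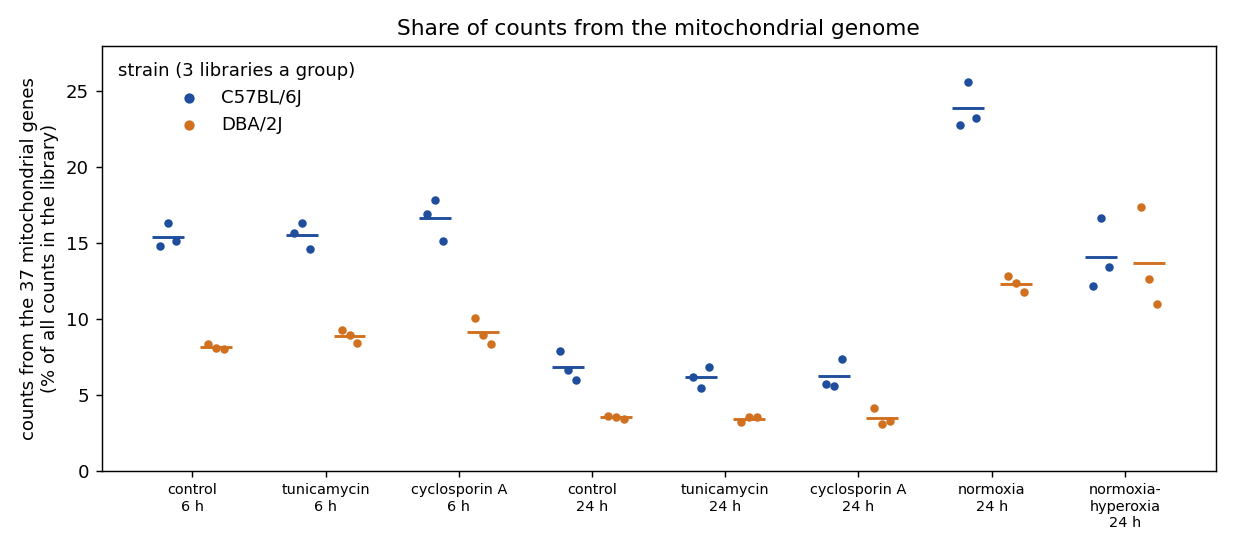
Counts from the 37 mitochondrial genes as a percentage of all counts in each of the 48 libraries, by condition and strain, with each group's mean as a bar. The C57BL/6J libraries lie above the DBA/2J libraries in every condition other than normoxia-hyperoxia, where 14.1% and 13.7% are the means and the libraries overlap.

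The strains differed in this share in 7 of the 8 conditions. C57BL/6J was 1.75-fold to 1.94-fold above DBA/2J in controls, both drugs at both hours and normoxia, and no library of one strain overlapped with the other within a condition. Under normoxia-hyperoxia the ratio was 1.03, and the libraries overlapped: C57BL/6J was at 12.2%, 16.6% and 13.4%, and DBA/2J at 17.4%, 12.7% and 10.98%. The 12.7% is that of the library with the fewest counts, and it lies between those of its group.

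Between 6 h and 24 h of control culture the 7 protein genes not wholly in the copied segment fell and the 2 rRNAs rose. Of 37 members, 20 passed the filter on low counts, and of these 12 fell and 4 rose by edgeR's quasi-likelihood test (Benjamini-Hochberg adjusted p under 0.05, mean of both strains), where 72.0% of all 16962 genes tested were called in either direction. The 12 include mt-Atp8 and mt-Nd4l, which passed the filter only through the 6 h libraries, so that it fixed their direction. The median log2 fold change over the members tested was -1.08, and -0.72 over the 14 not wholly in the segment, beside -0.02 over all genes. mt-Cytb, the complex III subunit, was at 58053, 59385 and 56680 CPM in C57BL/6J and 27669, 26388 and 27056 in DBA/2J at 6 h. At 24 h it was at 23329, 20627 and 18196 in C57BL/6J and 8194, 9575 and 8546 in DBA/2J. Every library at 24 h lay below every 6 h library of its strain. mt-Cytb fell by 1.77 ± 0.09 (SE) on the log2 scale, with an edgeR adjusted p of 6.6e-10. The 7 protein genes not wholly in the copied segment all fell: mt-Nd2 by 1.74, mt-Co1 by 1.54, mt-Nd1 by 1.35, mt-Nd4 by 1.34, mt-Nd6 by 1.31 and mt-Nd5 by 1.10 on the log2 scale.

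The 2 rRNAs, which form the core of the mitochondrial ribosome, went the other way. mt-Rnr2 was at 1681, 1921 and 1565 CPM in C57BL/6J controls at 6 h and at 4727, 3983 and 3660 at 24 h. In DBA/2J it was at 797, 928 and 976 CPM at 6 h and at 4609, 2528 and 2946 at 24 h. The groups did not overlap in either strain, and mt-Rnr2 rose by 1.37 ± 0.14 and mt-Rnr1 by 1.21 ± 0.11 on the log2 scale (adjusted p = 8.8e-07 and 2e-07). Set against the 7 protein genes not wholly in the copied segment, the rRNAs had 1.84 counts per 100 in C57BL/6J and 1.67 in DBA/2J at 6 h. At 24 h they had 10.5 and 15.9. Among the tRNAs, mt-Tl1 rose by 1.07 and mt-Tw by 1.16 on the log2 scale, while mt-Ti (isoleucine) at 0.47, mt-Tm at -0.35 and mt-Tt (threonine) at 0.15 did not pass the test. mt-Tl1 lies directly between mt-Rnr2 and mt-Nd1 on the genome. It was at 17.2, 18.2 and 14.1 CPM in C57BL/6J at 6 h and at 29.4, 22.5 and 20.3 at 24 h. The DBA/2J libraries went from 3.61, 4.97 and 4.29 to 20.2, 13.2 and 18.5 CPM, and the effects of the strains differed by 1.58 ± 0.28 (interaction, adjusted p = 0.0155), where 0.690% of all genes had an interaction. That call was lost without DBA/2J control 6 h replicate 3 or C57BL/6J control 24 h replicate 3. Of the 6 genes within the copied segment 5 fell, by 0.87 (mt-Co2) to 1.62 (mt-Atp8) on the log2 scale, and mt-Nd3 at -0.01 did not pass. The falls of mt-Atp8 and mt-Nd4l are no result, since the filter on low counts fixed their direction. The call for mt-Co2 was lost without DBA/2J control 24 h replicate 1, and that for mt-Nd4l when any of 8 of the 12 libraries was left out.

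Several cell markers moved with this comparison. The summed level of 10 proximal tubule markers, all of them detected, was at 11856 CPM in C57BL/6J (8128 to 15266 over the libraries) and 19382 in DBA/2J (17190 to 21962) at 6 h. At 24 h it was at 1694 (1414 to 1938) and 4971 (3222 to 5930). The 4 thick ascending limb markers summed to 13530 and 9806 CPM at 6 h and to 4410 and 3819 at 24 h. The nuclear RNAs Malat1 and Neat1 summed to 2179 and 2420 CPM at 6 h and 3072 and 3206 at 24 h. The distal convoluted tubule, principal cell, intercalated cell, podocyte, endothelial, immune and red blood cell markers each lay below every 6 h library of the strain at 24 h, with intercalated cell markers, for one, at 360 and 270 CPM and then at 80.5 and 56.7. The part of these markers in the results for the mitochondrial genes was not tested.

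Under normoxia the 7 protein genes not wholly in the copied segment rose and the 2 rRNAs fell. Of the 20 members that also passed the filter on low counts among control libraries alone, 18 rose against the 24 h controls and the 2 rRNAs fell, where 82.0% of all 17375 genes tested were called. The median over these 20 was 2.52 on the log2 scale, and 2.23 over the 14 of them not wholly in the segment, beside 0.05 over all genes. mt-Co1, the catalytic core of complex IV, was at 16421, 13648 and 13236 CPM in the C57BL/6J controls and at 66921, 81183 and 69363 under normoxia. The DBA/2J libraries were at 9446, 10106 and 9045 CPM in controls and at 48256, 44259 and 42006 under normoxia. No library of the 2 groups overlapped in either strain. mt-Co1 rose by 2.55 ± 0.10 (SE) on the log2 scale, with an adjusted p of 9.5e-13. The other 6 protein genes not wholly in the copied segment rose by 1.68 (mt-Nd4) to 3.78 (mt-Nd6) on the log2 scale, with mt-Cytb at 2.00, mt-Nd1 at 2.18, mt-Nd2 at 2.39 and mt-Nd5 at 2.71.

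mt-Nd6, the light-strand subunit of complex I, had the widest change of these 7. It was at 12.6, 12.1 and 15.3 CPM in C57BL/6J controls at 24 h and at 162, 182 and 196 under normoxia. The DBA/2J libraries went from 15.9, 8.22 and 15.5 to 130, 128 and 117 CPM. Read against its heavy-strand neighbour mt-Nd5, with which it overlaps at its end on the opposite strand, mt-Nd6 had 0.314 counts per 100 of mt-Nd5 in C57BL/6J and 0.614 in DBA/2J controls at 24 h, and 0.705 and 1.16 under normoxia. Whether the counting used the strand is not given in the sources used here. mt-Rnr2 fell by 1.83 and mt-Rnr1 by 1.52 on the log2 scale (adjusted p = 3.1e-08 and 7.7e-09). mt-Rnr2 was at 1615, 1614 and 1245 CPM in C57BL/6J and at 479, 495 and 545 in DBA/2J under normoxia, below every 24 h control. The rRNAs then had 1.07 counts per 100 of the 7 protein genes not wholly in the copied segment in C57BL/6J and 0.638 in DBA/2J. The fall of the rRNAs was the larger in DBA/2J. The effects of the strains differed by -1.09 for mt-Rnr1 and -1.15 for mt-Rnr2 (interaction, adjusted p = 0.0047 and 0.0132), where 6.88% of all genes had an interaction of that sign.

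Of the 22 tRNAs, 5 are among the 20 members, and all 5 rose under normoxia, by 1.85 (mt-Tt) to 2.61 (mt-Tm) on the log2 scale. A further 4, mt-Tv (valine), mt-Tq (glutamine), mt-Te (glutamate) and mt-Tp (proline), passed the filter only in fits that hold the normoxia libraries, where they are high. The filter thus fixed their direction, and they are left out of the counts of members. The other 13 tRNAs were not tested. mt-Tm was at 7.12, 4.87 and 6.06 CPM in C57BL/6J controls and at 29.8, 29.5 and 25.8 under normoxia, and at 5.88, 3.55 and 6.63 against 29.1, 30.02 and 27.3 in DBA/2J. No libraries overlapped, and its log2 fold change was 2.61 ± 0.13. mt-Tl1, mt-Ti and mt-Tw rose by 2.04, 2.29 and 2.49. The counts assigned to the 6 genes wholly within the copied segment rose by 3.96 (mt-Nd3) to 5.33 (mt-Atp8). For mt-Co2, a complex IV subunit, the counts in C57BL/6J were 225, 187 and 39 in controls and 4628, 3847 and 4300 under normoxia, and in DBA/2J 24, 49 and 22 in controls and 788, 554 and 432 under normoxia. Its identical copy Gm28661 had 13 to 37 counts in C57BL/6J controls and 117 to 145 under normoxia, and 11 to 15 and 38 to 64 in DBA/2J.

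Proximal tubule markers also rose with normoxia, to summed levels of 30803 CPM in C57BL/6J (28038 to 34260) and 41988 in DBA/2J (40595 to 43660), above every 24 h control. Thick ascending limb markers stood at 15651 CPM in C57BL/6J and 5492 in DBA/2J, and Malat1 with Neat1 at 1764 and 1725. Principal cell markers went from 166 CPM in 24 h controls to 760 in C57BL/6J and from 152 to 400 in DBA/2J, intercalated cell markers from 80.5 to 425 and from 56.7 to 217, and immune markers from 248 to 557 and from 291 to 389. These 3 sets and the red blood cell markers lay above every 24 h control library of the strain. Distal convoluted tubule markers were at 988 CPM in controls and 3420 under normoxia in C57BL/6J and at 1838 and 2105 in DBA/2J, where they overlapped, and podocyte markers lay below every control library in both. Against the 6 h controls, a comparison that shares its normoxia libraries with the one above, normoxia had 17 of the 20 members higher and 2 lower, where 65.8% of all 16819 genes were called. The share of counts from the 37 genes was then 1.55-fold higher in C57BL/6J and 1.51-fold higher in DBA/2J. In that comparison mt-Cytb at 0.18 did not pass the test, mt-Nd4 rose by 0.30 on the log2 scale, mt-Nd5 by 1.57 and mt-Nd6 by 2.42, and mt-Tl1 by 3.06. mt-Tl1 rose by 2.39 in C57BL/6J and 3.74 in DBA/2J, a difference of 1.35 (interaction, adjusted p = 0.0031), where 3.66% of all genes had an interaction. The counts of 4 genes within the segment had the smaller rise in DBA/2J, by -1.87 (mt-Co2), -3.72 (mt-Atp8), -2.21 (mt-Co3) and -1.99 (mt-Nd4l). The call for mt-Nd4l was lost when any of 10 of the 12 libraries was left out, and that for mt-Co2 without DBA/2J control 6 h replicate 1 or without replicate 2. DESeq2 called 8 interactions here, where edgeR called these 5. mt-Rnr1 fell by 0.35 and mt-Rnr2 by 0.50 as the mean of both strains. In C57BL/6J alone they did not pass (-0.14 and -0.29, adjusted p = 0.45 and 0.093), in DBA/2J they fell by 0.57 and 0.72, and the differences between the strains did not pass (adjusted p = 0.25 and 0.23). The part of the markers in these differences was not tested.

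**Figure D3:**
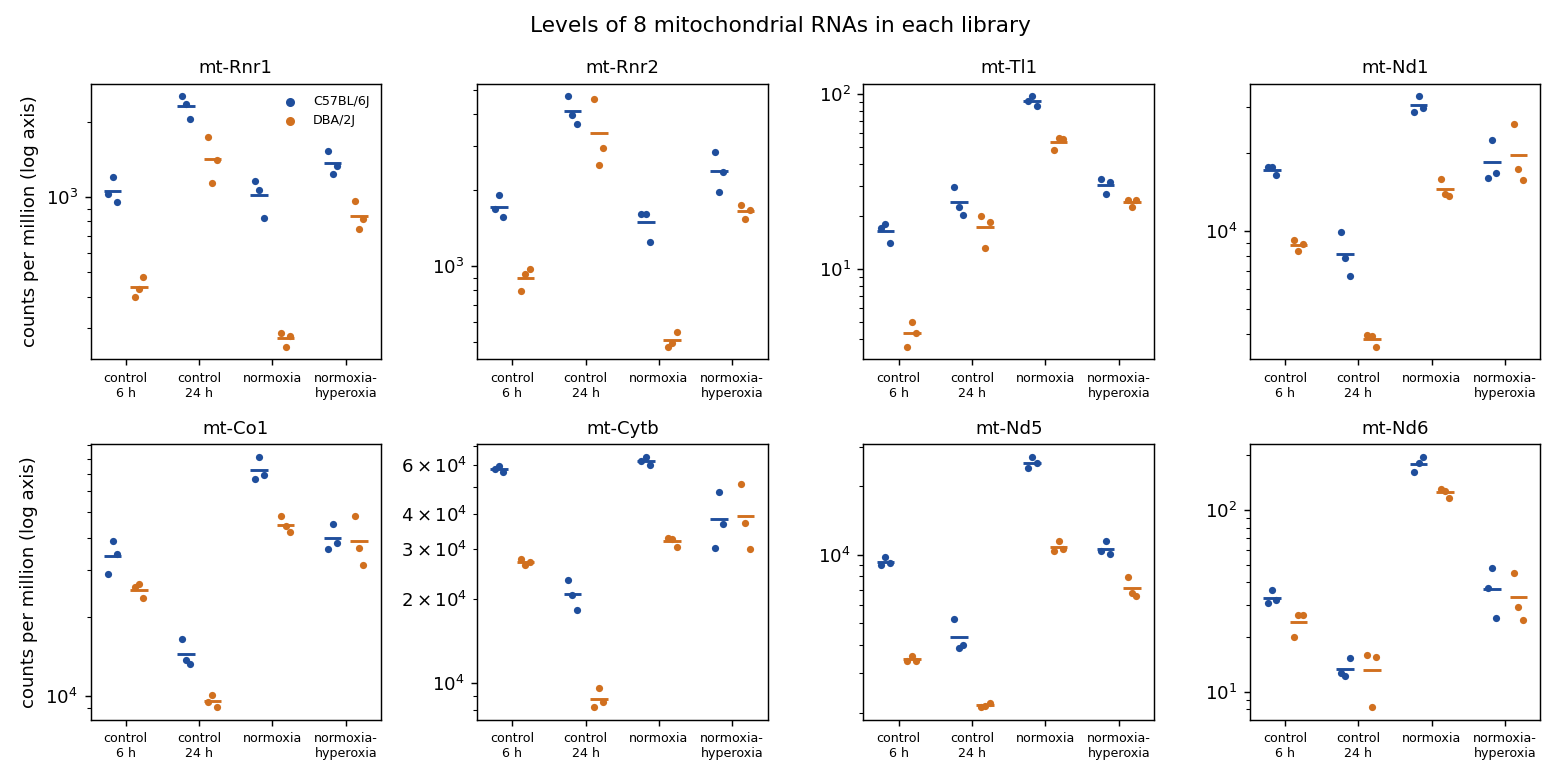
CPM, on a log axis, of 2 rRNAs, 1 tRNA and 5 mRNAs in each library of the control, normoxia and normoxia-hyperoxia groups, with each group's mean as a bar. The group means of the mRNAs are lowest in 24 h controls and highest under normoxia, apart from mt-Nd1 and mt-Cytb in DBA/2J, which are highest under normoxia-hyperoxia, and those of the rRNAs are highest in 24 h controls.

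Under normoxia-hyperoxia the same 7 protein genes rose and the rRNAs fell against the 24 h controls. Of 20 members tested, 18 rose and the 2 rRNAs fell, where 68.2% of all 17256 genes tested were called. This comparison shares its controls with the normoxia one. mt-Nd1, a complex I subunit, was at 9906, 7864 and 6699 CPM in C57BL/6J controls and at 15976, 22451 and 16677 under normoxia-hyperoxia. The DBA/2J libraries were at 3982, 3951 and 3595 CPM in controls and at 25781, 17280 and 15675 under normoxia-hyperoxia. No libraries overlapped in either strain, and mt-Nd1 rose by 1.93 ± 0.15 (SE) on the log2 scale, with an adjusted p of 3.8e-08. The 7 protein genes not wholly in the copied segment rose by 1.58 (mt-Nd6) to 2.05 (mt-Nd2) and the 6 within it by 1.71 (mt-Co3) to 2.30 (mt-Nd3). mt-Rnr1 fell by 0.59 and mt-Rnr2 by 0.73 on the log2 scale, and mt-Tl1 rose by 0.58.

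For the 6 heavy-strand protein genes not wholly in the copied segment the fitted log2 fold change was the larger in DBA/2J, and 1 of these 6 differences passed the test. For mt-Nd4, a complex I subunit with 63.57% of its length in the segment, the log2 fold change was 1.10 ± 0.20 in C57BL/6J and 2.31 ± 0.21 in DBA/2J, a difference of 1.21 ± 0.28 (interaction, adjusted p = 0.049), where 1.43% of all genes had an interaction. The call for mt-Nd4 was lost when any of 9 of the 12 libraries was left out. The corresponding differences for mt-Cytb (1.23, adjusted p = 0.062), mt-Nd1 (1.13, adjusted p = 0.079) and mt-Nd2 (1.04, adjusted p = 0.1) did not pass. With a replicate block 4 members had an interaction and with DESeq2 5, where edgeR without the block called 1. Proximal tubule markers moved against the mRNAs here, at 900 CPM in C57BL/6J (758 to 1090) and 2117 in DBA/2J (1793 to 2615) under normoxia-hyperoxia, below every 24 h control library of the strain. Thick ascending limb markers stood at 15587 CPM (9008 to 23035) and 14645 CPM (13652 to 15324), above every 24 h control library. Distal convoluted tubule markers at 6053 and 7013 CPM (C57BL/6J, then DBA/2J), principal cell markers at 987 and 778, intercalated cell markers at 583 and 418 and podocyte markers at 1793 and 1544 also lay above every 24 h control library of the strain. The same held for endothelial markers at 1143 and 1342 CPM, immune markers at 887 and 1536 and red blood cell markers at 196 and 180.002. The part of these sets in the result was not tested.

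Set against normoxia alone, normoxia-hyperoxia had higher rRNAs, while 3 of the 7 protein genes not wholly in the copied segment, 3 of 5 tRNAs and all 6 genes within the segment fell. Of the 20 members, 2 rose and 12 fell, where 73.5% of all 17228 genes tested were called, so that the share of members called was not above that of all genes. mt-Rnr1 rose by 0.94 ± 0.10 and mt-Rnr2 by 1.11 ± 0.10 on the log2 scale. Of the 7 protein genes not wholly in the copied segment, mt-Nd6 fell by 2.18, mt-Nd5 by 1.02 and mt-Co1 by 0.62, while mt-Nd1 at -0.24, mt-Nd2 at -0.32, mt-Cytb at -0.28 and mt-Nd4 at 0.03 did not pass the test. mt-Nd5 was at 24262, 27032 and 25308 CPM in C57BL/6J under normoxia and at 10321, 11534 and 10013 under normoxia-hyperoxia. In DBA/2J it was at 10345, 11532 and 10542 CPM and then at 7949, 6786 and 6545. mt-Nd5 was lower in every library of both strains, and its ratio to mt-Cytb, transcribed from the same strand, went from 41.3 to 28.4 counts per 100 in C57BL/6J and from 33.7 to 18.5 in DBA/2J. All 6 genes within the copied segment fell, by 1.61 (mt-Nd3) to 3.32 (mt-Nd4l). Of the 5 tRNAs among the 20 members 3 fell, mt-Tl1 by 1.45, mt-Tm by 1.09 and mt-Tw by 1.14.

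The strains differed in this comparison. In C57BL/6J alone, where 61.8% of all genes were called, mt-Nd1 fell by 0.74, mt-Nd2 by 0.84, mt-Co1 by 0.87 and mt-Cytb by 0.69 on the log2 scale, and mt-Nd4 at -0.42 did not pass. In DBA/2J alone, where 68.5% were called, mt-Nd4 rose by 0.49, and mt-Nd1 at 0.26, mt-Nd2 at 0.20, mt-Cytb at 0.13 and mt-Co1 at -0.38 did not pass. The difference between the strains passed the test for 11 members, all with the more positive effect in DBA/2J, where 18.2% of all genes had an interaction: mt-Nd1 (1.00), mt-Nd2 (1.04), mt-Nd4 (0.91), mt-Rnr1 (1.04), mt-Rnr2 (0.86), mt-Ti (1.30) and 5 of the 6 genes within the segment (2.03 for mt-Nd4l to 2.63 for mt-Atp8). Without DBA/2J normoxia replicate 2, or without replicate 3, this count was 7. For mt-Co1 (0.49), mt-Nd5 (0.49), mt-Nd6 (0.20) and mt-Cytb (0.81) the difference did not pass, with adjusted p of 0.22, 0.096, 0.73 and 0.073. The thick ascending limb markers were at 15651 CPM under normoxia and 15587 under normoxia-hyperoxia in C57BL/6J, and at 5492 and 14645 in DBA/2J, while the proximal tubule markers were lower under normoxia-hyperoxia in both. The distal convoluted tubule markers were at 3420 and 6053 CPM in C57BL/6J and at 2105 and 7013 in DBA/2J, the endothelial ones at 795 and 1143 and at 468 and 1342, and the immune ones at 557 and 887 and at 389 and 1536. Their part in the strain difference was not tested.

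**Figure D4:**
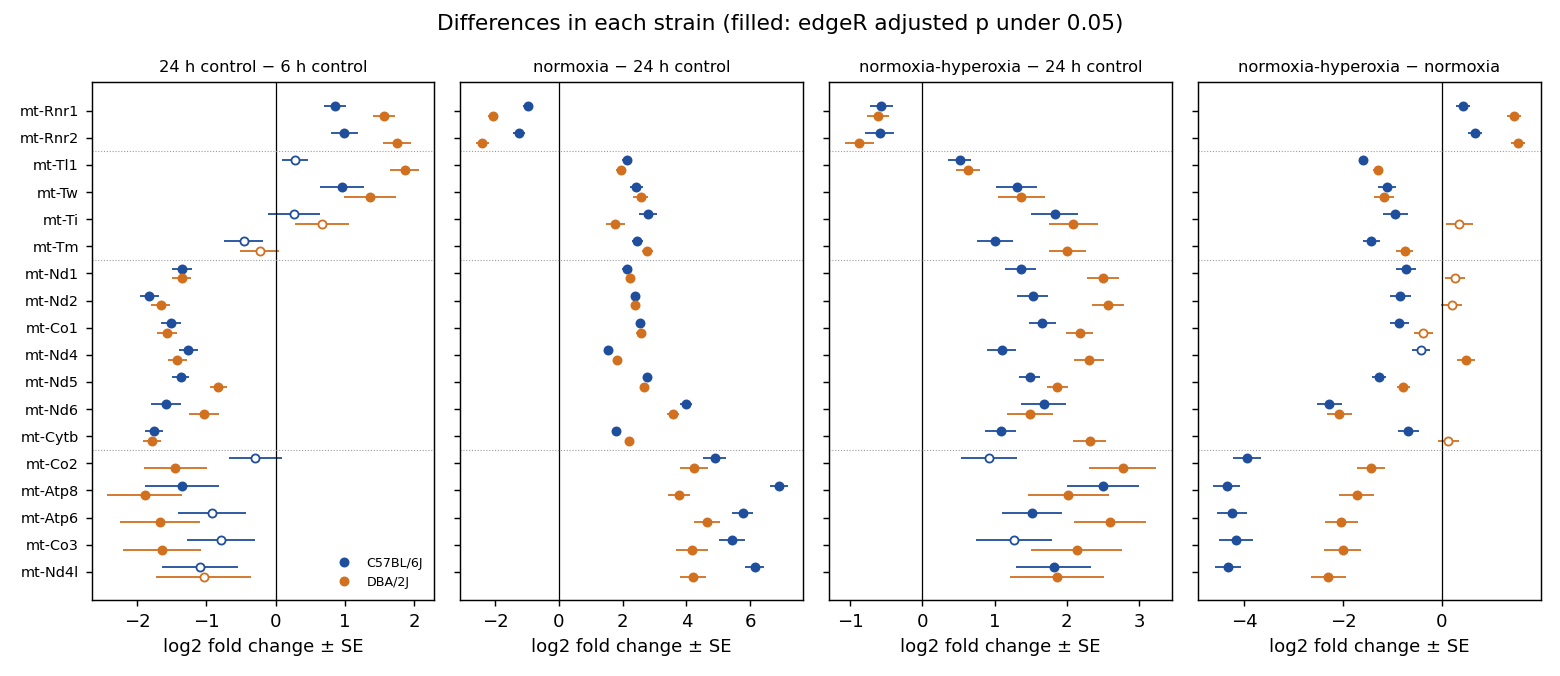
Log2 fold changes with standard errors of 18 members in 4 comparisons, for C57BL/6J and DBA/2J apart; filled points passed edgeR's test at an adjusted p under 0.05, and dotted lines part the rRNAs, the tRNAs, the 7 protein genes not wholly in the copied segment and 5 of the 6 within it (mt-Nd3 is left out for its few counts in DBA/2J). The rRNAs lie on the other side of 0 from the filled points of the protein genes in all 4 panels, with the exception of mt-Nd4 in DBA/2J in the last panel.

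No member passed the threshold for either drug at either hour. With edgeR, 0 of 20 members tested were called for tunicamycin and 0 of 20 for cyclosporin A, at 6 h and at 24 h, where the shares of all genes called were 0.00%, 0.00%, 1.38% (tunicamycin at 24 h) and 0.00%. At an unadjusted p under 0.05 there were 6 members for tunicamycin and 9 for cyclosporin A at 6 h, and 2 and 0 at 24 h. The share of all genes under this unadjusted threshold was not counted, so no excess of members can be read from these numbers. The smallest adjusted p of a member was 0.336, for cyclosporin A at 6 h. DESeq2 called 0, 3, 0 and 0 members in the same order of tunicamycin and cyclosporin A at 6 h, then at 24 h. The shares of all genes above are edgeR's, and these DESeq2 counts were not set against that tool's own share. The 3 were mt-Co2, mt-Atp8 and mt-Nd4l (adjusted p = 0.0266, 0.00146 and 0.0078 by DESeq2), named here after their values were seen. All 3 lie within the copied segment, mt-Atp8 by its position with only its last 43 bases matched.

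None of the values that follow passed edgeR's test, and the 2 sets of protein genes were not tested against each other. At 6 h the median log2 fold change was 1.04 for the 6 genes wholly in the copied segment and 0.08 for the other 7 under tunicamycin, and 1.65 and 0.16 under cyclosporin A, beside -0.003 and -0.001 over all genes. For cyclosporin A at 6 h, mt-Co2 had 1037, 477 and 391 counts in C57BL/6J beside 106, 192 and 140 in the controls, and 68, 212 and 260 in DBA/2J beside 94, 102 and 58. The C57BL/6J groups did not overlap and the DBA/2J groups did. mt-Cytb, which lies outside the segment, had a log2 fold change of 0.11 ± 0.09 with cyclosporin A and 0.03 ± 0.09 with tunicamycin at 6 h.

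Of the 14 members tested that do not lie wholly in the copied segment, 11 were lower in DBA/2J than in C57BL/6J at 6 h and 8 at 24 h, and none was higher, where 26.2% and 22.2% of all genes differed in either direction by edgeR's test. Under normoxia 11 of the 14 were lower and none higher, where 46.8% of all genes differed. Of the 6 genes within the segment, whose assigned counts are no measure of the mRNA, 1, 4 and 6 were called lower in the same order. mt-Nd3 is among them each time. At 6 h and 24 h the filter on low counts fixed its direction, as given further on with its copy. The median log2 difference over the 14 members was -1.13 at 6 h, -0.83 at 24 h and -0.94 under normoxia, beside -0.0003, 0.04 and 0.08 over all genes. mt-Nd5 had the widest difference among the 7 protein genes not wholly in the segment at 6 h, at 8977, 9718 and 9182 CPM in C57BL/6J and 3385, 3543 and 3388 in DBA/2J. Its log2 difference was -1.58 ± 0.12 at 6 h (adjusted p = 4.9e-07), -1.04 at 24 h, -1.17 under normoxia and -0.68 under normoxia-hyperoxia. mt-Cytb differed by -1.25, -1.27 and -0.87 in the first 3 of these and by -0.06 under normoxia-hyperoxia, where it did not pass. mt-Co1 had the smallest difference of the 6 heavy-strand genes among them in each of the 3 (-0.58, -0.63 and -0.62). mt-Nd6 differed by -0.59 at 6 h, a call lost when any of 10 of the 12 libraries was left out. It did not pass at 24 h (-0.04) or, in the fit with the normoxia-hyperoxia libraries, under normoxia (-0.45), while in the fit with the 24 h controls the latter passed (-0.48, adjusted p = 0.036). In the same groups the summed proximal tubule markers were the higher in DBA/2J, by the values above. Several other sets were the lower in DBA/2J, as the members were. The thick ascending limb markers were at 13530 CPM in C57BL/6J and 9806 in DBA/2J at 6 h, 4410 and 3819 at 24 h, and 15651 and 5492 under normoxia. Under normoxia the principal cell markers were at 760 and 400 CPM (C57BL/6J, then DBA/2J), the intercalated cell markers at 425 and 217, and the podocyte markers at 923 and 525. Podocyte markers were also at 1872 and 1451 CPM at 6 h and 1272 and 778 at 24 h. Endothelial ones were at 1233 and 904 CPM at 6 h, 697 and 475 at 24 h, and 795 and 468 under normoxia. Other sets went the other way at 24 h, with distal convoluted tubule markers at 988 and 1838 CPM and immune markers at 248 and 291. The part of these markers in the strain difference was not tested.

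Under normoxia-hyperoxia 5 of the 14 members were lower in DBA/2J and 1 was higher, where 25.7% of all genes differed. Those lower were mt-Nd5, both rRNAs (-0.79 for mt-Rnr1 and -0.62 for mt-Rnr2), mt-Tl1 and mt-Tw, and within the segment the counts of mt-Nd3 and mt-Nd4l were lower. mt-Tm was higher, at 24.8, 19.9 and 13.3 CPM in DBA/2J and 10.1, 10.3 and 11.2 in C57BL/6J, with a log2 difference of 0.78. Estimated together with the 24 h controls instead of the normoxia libraries, 4 of the 14 were lower and 1 higher, where 23.7% of all genes differed. In the fit with the normoxia libraries mt-Nd1, mt-Nd2, mt-Co1, mt-Nd4 and mt-Cytb lay between -0.13 and -0.005 and did not pass. For mt-Nd1 the 3 values were 15976, 22451 and 16677 CPM in C57BL/6J and 25781, 17280 and 15675 in DBA/2J, and they overlapped. The tRNAs mt-Tg (glycine) and mt-Tr (arginine) passed the filter only in the fit that holds normoxia and normoxia-hyperoxia libraries, through the C57BL/6J ones, which fixed their direction. Under normoxia-hyperoxia mt-Tr had 5, 1 and 10 counts in C57BL/6J and 0 in all 3 DBA/2J libraries, and mt-Tg had 3, 14 and 3 against 1, 0 and 0.

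The counts of mt-Nd3 and of its nuclear copy were split by strain in every library. In C57BL/6J it had 27, 55 and 54 counts in 6 h controls, 43, 16 and 26 at 24 h, 506, 461 and 450 under normoxia and 86, 147 and 113 under normoxia-hyperoxia. DBA/2J had 2, 0 and 0 counts, then 2, 1 and 1, then 25, 24 and 15, and then 10, 0 and 11. Its counts were called lower in DBA/2J in all 4 conditions, with adjusted p between 4.1e-09 and 0.00037. Its copy Gm28438, from which it differs by the T3C shown above, had the opposite split. Over the 24 C57BL/6J libraries mt-Nd3 had 2879 counts and Gm28438 198, and over the 24 DBA/2J libraries mt-Nd3 had 115 and Gm28438 had 1170. Of the counts at the 2 places, mt-Nd3 had 75.9% to 100% in a C57BL/6J library (median 94.8%) and 0% to 27.6% in a DBA/2J library (median 4.65%), so the strains did not overlap. The sum of both places was thus split by strain, and from which of the 2 genomes the reads of either place came was not tested.

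**Figure D5:**
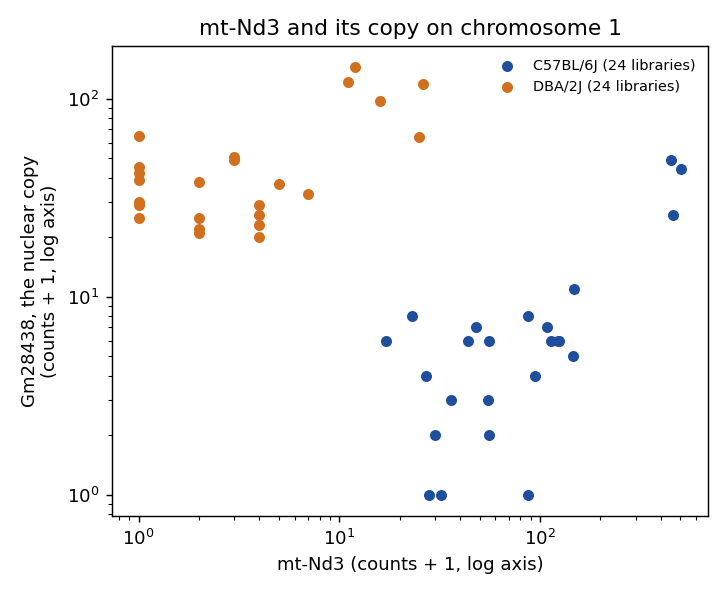
Counts of mt-Nd3 against those of its nuclear copy Gm28438 in each of the 48 libraries, both as counts + 1 on log axes. The 24 C57BL/6J libraries have 16 to 506 counts at mt-Nd3 and 0 to 48 at Gm28438, and the 24 DBA/2J libraries 0 to 25 and 19 to 143; each axis alone overlaps between the strains, and the share at mt-Nd3 does not.

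The mix of the 7 protein genes not wholly in the segment also differed between conditions. mt-Cytb held 38.4% ± 1.42 (SD, n = 3) of their counts in C57BL/6J controls at 6 h, 33.6% ± 0.869 at 24 h, 26.3% ± 1.12 under normoxia and 27.9% ± 1.77 under normoxia-hyperoxia. mt-Co1 held 22.5%, 23.4%, 30.7% and 29.3% in these groups. In DBA/2J mt-Cytb held 33.7%, 28.8%, 26.2% and 29.3% and mt-Co1 31.6%, 31.4%, 36.6% and 29.1%. mt-Co1 thus had 58.9 counts per 100 of mt-Cytb in C57BL/6J and 93.9 in DBA/2J at 6 h, 117 and 140 under normoxia, and 106 and 99.5 under normoxia-hyperoxia, where alone of the 4 conditions the strains overlapped. mt-Nd4 held 15.03% and 12.7% in 24 h controls and 9.95% and 8.93% under normoxia, and its libraries did not overlap between these 2 conditions in either strain. The 2 rRNAs also kept no fixed ratio: mt-Rnr2 had 162 counts per 100 of mt-Rnr1 in C57BL/6J and 207 in DBA/2J at 6 h, and 147 and 187 under normoxia.

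The nuclear partners of these genes were read from lists of the pathway. In the 4 comparisons used, which are 24 h against 6 h controls, normoxia and normoxia-hyperoxia each against 24 h controls, and normoxia-hyperoxia against normoxia, the share of all genes called in either direction was 72.0%, 82.0%, 68.2% and 73.5%. Of 78 nuclear subunits of complexes I, III, IV and V tested, 76 fell and 1 rose from 6 h to 24 h (median log2 fold change -0.94), 74 rose and 1 fell under normoxia (1.14), and 75 rose and 2 fell under normoxia-hyperoxia (0.68), each against the 24 h controls. From normoxia to normoxia-hyperoxia 63 fell and 1 rose (-0.38). The medians over all genes tested in these 4 comparisons were -0.02, 0.05, 0.004 and 0.02. Ndufs1, a core subunit of complex I, fell by 1.35 ± 0.07 with time and rose by 1.56 ± 0.06 under normoxia, and Cox6c, a subunit of complex IV, fell by 1.30 with time. The 4 subunits of complex II, none of them encoded in mitochondria, all fell with time, rose under both oxygen conditions and fell from normoxia to normoxia-hyperoxia. Under both drugs none of the lists had a gene called, except 1 nuclear subunit that rose with tunicamycin at 24 h.

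Mitochondrial ribosomal proteins are the nuclear-encoded partners of the 2 rRNAs. Of 80 tested, 46 fell and 10 rose with time (median -0.26), 58 rose and 8 fell under normoxia (0.49), 35 fell and 15 rose under normoxia-hyperoxia (-0.11), and 71 fell and 1 rose from normoxia to normoxia-hyperoxia (-0.57). In the first 2 of these the numbers called, 56 and 66 of 80, lie near the 72.0% and 82.0% of all genes. In the third the number called is below the 68.2% of all genes. The rRNAs had the other sign in the first, second and last of these. Mrpl34 fell by 1.33 with time and rose by 1.74 under normoxia.

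Of 10 factors of mitochondrial transcription, 3 rose and 3 fell with time, 7 rose under normoxia, 6 fell and 1 rose under normoxia-hyperoxia, and 9 fell from normoxia to normoxia-hyperoxia. With time and under normoxia the numbers called, 6 and 7 of 10, are below the 72.0% and 82.0% of all genes. Under normoxia-hyperoxia the number called lies near the 68.2% of all genes. Polrmt, the mitochondrial RNA polymerase, fell by 0.50 ± 0.09 with time, rose by 1.10 ± 0.07 under normoxia and fell by 0.97 ± 0.07 from normoxia to normoxia-hyperoxia. Tfam, which packs mitochondrial DNA and starts transcription, rose by 0.22 with time and fell by 0.53 under normoxia-hyperoxia. Of 22 factors that cut, tail, stabilise or degrade mitochondrial RNA, 8 rose and 6 fell with time, 9 rose and 7 fell under normoxia, 4 rose and 13 fell under normoxia-hyperoxia, and 4 rose and 15 fell from normoxia to normoxia-hyperoxia. Here too the first 2 numbers, 14 and 16 of 22, are below the shares of all genes, 72.0% and 82.0%. Trmt10c, a subunit of the enzyme that cuts the 5′ end of mitochondrial tRNAs, rose by 0.93 with time and fell by 1.52 under normoxia and by 1.03 under normoxia-hyperoxia. Lrpprc, which stabilises mitochondrial mRNAs, fell by 0.99 and its partner Slirp by 0.94 from normoxia to normoxia-hyperoxia. Pde12, which removes poly(A) tails in mitochondria, fell by 0.96 under normoxia and rose by 1.30 under normoxia-hyperoxia, and by 2.28 between the 2.

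Of 14 genes of mitochondrial DNA replication, 8 rose and 5 fell with time, 7 rose and 4 fell under normoxia, 3 rose and 7 fell under normoxia-hyperoxia, and 9 fell from normoxia to normoxia-hyperoxia. The 11 of 14 called under normoxia and the 9 of 14 from normoxia to normoxia-hyperoxia are below the 82.0% and 73.5% of all genes. Those called under normoxia-hyperoxia lie near the 68.2% of all genes. Twnk, the replicative helicase, rose by 0.78 with time and fell by 0.98 under normoxia-hyperoxia. Of 8 coactivators and nuclear respiratory factors, 3 rose and 5 fell with time, 5 rose and 3 fell under each oxygen condition, and 5 rose and 1 fell from normoxia to normoxia-hyperoxia, beside 72.0%, 82.0%, 68.2% and 73.5% of all genes called. Ppargc1a, the coactivator PGC-1alpha, fell by 2.19 ± 0.11 with time and rose by 1.91 ± 0.10 under normoxia-hyperoxia. Its relative Pprc1 fell by 2.79 ± 0.08 under normoxia, while Esrrg, an orphan receptor that acts with it, fell by 2.47 with time and rose by 2.26 under normoxia.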

How the data were processed

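The deposited table holds raw counts per Ensembl gene for 48 libraries. Per the labels' protocols, RNA came from a Qiagen midi kit and libraries from an Illumina stranded mRNA ligation kit. Per the submitters' processing notes, the authors used bcl2fastq 2.20.0, FastQC 0.11.8, STAR 2.7.9a, featureCounts 1.5.1 and build GRCm38; the roles, strand setting, annotation release and treatment of reads with several matches are not given in the sources used here.

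The members and lists were chosen with earlier results of these data known. CPM, on the counts-per-million scale, are counts divided by the library's total. Each comparison was a fit of 12 libraries in 4 groups (2 strains by 2 conditions) with edgeR 4.0.16 in R 4.3.3: filterByExpr, TMM factors, robust quasi-likelihood F-tests and Benjamini-Hochberg adjustment over all genes tested at 0.05. The mean effect, each strain's effect, their difference (DBA/2J minus C57BL/6J) and the strain differences were contrasts. The standard error is the absolute log2 fold change divided by the square root of F. The test was checked on simulated counts. Alternatives were RLE factors, total counts, scaling without the mitochondrial genes, no filter, DESeq2 1.42.0, a replicate block, each library left out and, chosen after seeing the data, each strain difference in the other fits that hold its groups. The interaction of normoxia against 6 h controls was also added after seeing the data. All 13 protein genes and both rRNAs were named by rule, with the 4 tRNAs of highest mean CPM (mt-Tl1, mt-Tm, mt-Tw and mt-Ti), any tRNA past a test, the nuclear copies, and up to 4 genes of smallest p per list. Copies were found with blastn 2.17.0 (word size 16, alignments of 40 bases or more) over GENCODE M21 transcripts. No replicate pair agreed within counting noise (lowest chi-square per degree of freedom 5.76).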

Additional observations from a re-analysis of the deposited data

Results flagged for a closer look

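The effect of a condition differed between DBA/2J and C57BL/6J by edgeR's interaction test in 21 results, given here as DBA/2J minus C57BL/6J on the log2 scale. With culture time it was mt-Tl1 (1.58). Under normoxia against the 24 h controls they were mt-Rnr1 (-1.09), mt-Rnr2 (-1.15) and mt-Atp8 (-3.12). Against the 6 h controls they were mt-Tl1 (1.35), mt-Co2 (-1.87), mt-Atp8 (-3.72), mt-Co3 (-2.21) and mt-Nd4l (-1.99), with the same normoxia libraries. Under normoxia-hyperoxia against the 24 h controls it was mt-Nd4 (1.21).

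From normoxia to normoxia-hyperoxia the difference was 1.04 for mt-Rnr1, 0.86 for mt-Rnr2, 1.00 for mt-Nd1, 1.04 for mt-Nd2, 0.91 for mt-Nd4 and 1.30 for mt-Ti. For genes within the segment copied on chromosome 1 it was 2.51 for mt-Co2, 2.63 for mt-Atp8, 2.21 for mt-Atp6, 2.16 for mt-Co3 and 2.03 for mt-Nd4l. The members are the 20 that passed the filter on low counts among control libraries alone. The adjusted p of the 21 lay between 0.0021 and 0.049.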

How the results depend on the processing

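Of 118 counts of members called under another scaling, filter, tool, block or set of libraries in the fit, 108 stayed within 1.5 times the main count; these counts include the tRNAs that passed the filter only with normoxia libraries. DESeq2 called 3 members for cyclosporin A at 6 h, where edgeR called 0, 5 interactions for normoxia-hyperoxia, where edgeR called 1, and 8 for normoxia against 6 h, where edgeR called 5. Without the low-count filter 26 members changed from normoxia to normoxia-hyperoxia (main 17), and interactions numbered 4 for time (main 1), 9 for normoxia (main 4) and 6 for normoxia-hyperoxia; more members are then tested. Scaling by total counts gave 2 interactions for normoxia-hyperoxia. That scaling moved the median of all genes by 0.21 for time, -0.27 for normoxia and -0.17 for normoxia-hyperoxia (log2), and the split of all genes called into higher and lower from 5883 and 6338 to 7580 and 4969, from 7359 and 6891 to 5935 and 8360, and from 5881 and 5891 to 4699 and 7347; no call of a named member reversed. The strain difference under normoxia-hyperoxia had 6 members called in the fit with the 24 h controls (main 10), an alternative chosen after seeing the data. With a replicate block the calls were 16 for time, 24 for normoxia, 20 for normoxia-hyperoxia, 20 from normoxia to normoxia-hyperoxia (main 17), 24 for normoxia against 6 h (main 23) and 0 for each drug. Interactions were 1 for time, 3 for normoxia (main 4), 4 for normoxia-hyperoxia, 14 from normoxia to normoxia-hyperoxia (main 11) and 7 for normoxia against 6 h (main 5). Strain differences were 13 at 6 h (main 12), 10 at 24 h (main 12), 20 under normoxia and 7 under normoxia-hyperoxia (main 10). Same-numbered libraries correlated by -0.114 to 0.327 in their deviations. All 3 pairs of a strain were over 0.1 in 5 of 18 sets of a strain and a fit, and all 6 pairs in 0 of the 9 fits. All 12 libraries correlated best with their own number in the fit of normoxia with 6 h controls alone, a hint from the data and not the design. The numbers were not taken as pairs.

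Without 1 library the counts ranged from 15 to 16 for time, 24 to 25 for normoxia, 20 to 20 for normoxia-hyperoxia, 17 to 21 from normoxia to normoxia-hyperoxia, 23 to 24 for normoxia against 6 h, 0 to 1 for tunicamycin at 24 h and 0 to 0 for the other drug comparisons. Interactions ranged from 0 to 1 for time (0 without DBA/2J control 6 h replicate 3 or C57BL/6J control 24 h replicate 3), 3 to 6 for normoxia, 0 to 4 for normoxia-hyperoxia, 7 to 13 from normoxia to normoxia-hyperoxia and 3 to 6 for normoxia against 6 h (3 without DBA/2J control 6 h replicate 1 or replicate 2). Strain differences ranged from 10 to 13 at 6 h, 9 to 13 at 24 h, 19 to 21 under normoxia and 7 to 12 under normoxia-hyperoxia. Of 2808 refits of the 156 single-gene calls, 2702 kept their side of the threshold, 106 lost it and 0 reversed. The cause of these changes was not tested. Calls lost most often were mt-Nd6 between strains at 6 h, mt-Tw, mt-Co3 and mt-Atp6 between strains at 24 h, mt-Nd4l with time and mt-Nd4 in the normoxia-hyperoxia interaction.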
